A study of Canis lupus familiaris with 10 samples.

Results

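The regions described here are 262 stretches of open chromatin of the canine B-cell lymphoma line 17-71 that lie inside a gene (145 regions, 55.3%), across its 3′ end (20 regions, 7.63%) or downstream of it (97 regions, 37%). They are all rows of these 3 kinds, apart from those paired with MYC and LCP1, among the 1999 rows used here of the study's own read-count comparison of C220 with control in 17-71, which is ordered by that test. The regions were thus chosen by read counts of the same 17-71 libraries, so their values in 17-71 are a description and carry no test, whereas the CLBL-1 libraries took no part in the choice. The same 1999 rows held 251 regions on the promoter side of a gene and 1484 with no paired gene, and the peaks of all 17-71 libraries merged into 48847 regions.

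ATAC-seq, in which a transposase cuts and tags open chromatin, had been run on 2 canine cell lines labelled as B-cell lymphoma, 17-71 and CLBL-1, grown in culture with or without C220 (PR220 in the labels), a selective inhibitor of the protein arginine methyltransferase PRMT5, at 100 nM. The 17-71 cells were collected at day 4 (controls B1, B2 and B3; C220 libraries B4 and B6) and the CLBL-1 cells at day 2 (controls C2 and C3; C220 libraries C4, C5 and C6), so that line and day cannot be told apart. No genetic change was made, each line is 1 established culture, and the study describes its experiments as biological replicates, although the labels do not tie the libraries to separate cultures. Whether the chromatin of B-cell marker genes was open was not checked, since no gene starts of the build used were at hand.

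PRMT5 places symmetric dimethyl marks on arginines of histones and of many splicing and RNA-binding proteins. Some of its marks on histone tails are linked to gene silencing, and another, on histone H3, to open chromatin and gene expression. Loss of the enzyme's activity is known to disturb splicing. Open regions in gene bodies and beyond gene ends are often enhancers, which carry binding sites for transcription factors and act on the paired gene or on others. In B cells such elements lie around genes of the cell cycle, of survival and of antigen receptor, Toll-like receptor and NF-κB signalling.

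The values are those of the peaks called in each library. Fold enrichment is the fragment pile-up over the local background, and −log10 p is the strength of the call, for which 5 was the lowest value reported. The rank of a region is the place of its strongest peak in its own library's list, with 1 for the largest −log10 p, so that a larger rank is a weaker peak. A region "lost" a peak where all 3 controls and neither C220 library of 17-71 had one, and "gained" one in the reverse case. In bulk libraries, fewer cells with an open region and less opening per cell cannot be told apart. Positions are of CanFam3.1 and mark the merged peaks.

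Of the 262 regions, 182 were paired with a protein-coding gene (69.5%), 64 with a lincRNA (24.4%), 5 with a microRNA, 4 with a small nuclear RNA, 3 with a small nucleolar RNA, 2 with a pseudogene and 1 each with a ribosomal RNA and a miscellaneous RNA. A gene symbol was given for 146. Their median length was 1159.5 bp, against 1012 bp over all merged regions and 1419 bp for the promoter-side rows. The paired genes were spread over the genome, with 16 regions each on chromosomes 1 and 27. Chromosome 27 held 6.11% of these regions and 3.11% of all merged regions, and chromosome 1 held 6.11% and 5.8%.

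Peaks were called at 187 of the 262 regions in B1, 162 in B2 and 155 in B3. In the C220 libraries they were called at 130 in B4 and 147 in B6. All 3 controls therefore covered more of the regions than either C220 library. The lists themselves differed in the same order, with 44378, 33358 and 30943 peaks in B1, B2 and B3 and 22076 and 27646 in B4 and B6. The share of the 262 with a peak was below the share of all merged regions in B1 (71.4% against 90%), B2 (61.8% against 67.9%) and B3 (59.2% against 63.2%), above it in B4 (49.6% against 44.6%) and nearly equal to it in B6 (56.1% against 56.2%). Treatment and list length cannot be told apart in 17-71.

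**Figure D1:**
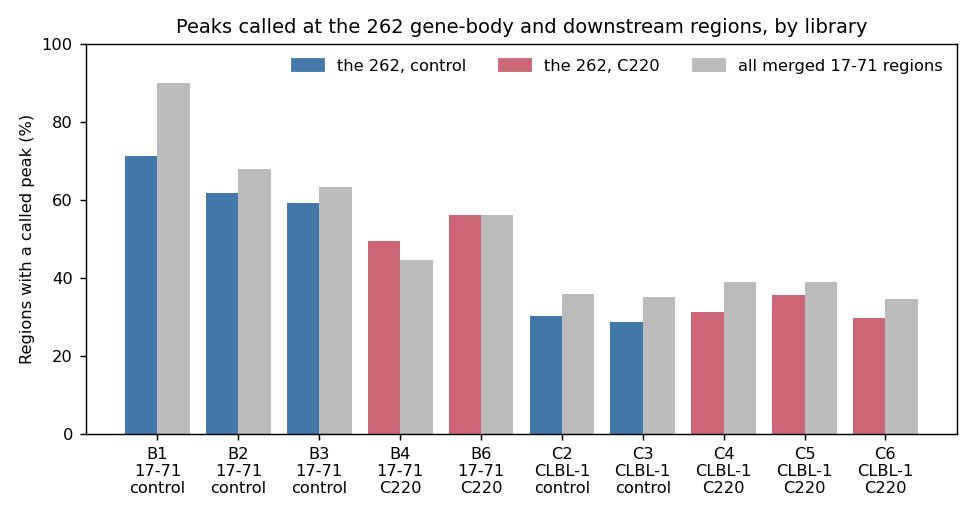
Share of the 262 regions (coloured bars, blue for control and red for C220) and of all 48847 merged 17-71 regions (grey bars) with a called peak in each of the 10 libraries, in percent. The 262 stand at 59.2% or more in the 17-71 controls, at 49.6% and 56.1% in the C220 libraries of 17-71 and between 28.6% and 35.5% in CLBL-1.

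The calls fell into a few patterns. A peak was present in all 5 libraries of 17-71 at 77 regions (29.4% of the 262), against 36.1% of all merged regions. A further 32 regions (12.2%, against 11.7%) had a peak in all controls and in 1 C220 library, which was B6 in 29 and B4 in 3. At 28 regions the peak was lost (10.7%), where 6.94% of all merged regions were. At 47 regions (17.9%, against 31%) some controls and no C220 library had a peak. Peaks of C220 libraries alone were gained at 4 regions (1.53%, against a background of 0.215%) and called in 1 C220 library alone at 54 (20.6%, against 3.55%). The remaining regions were 19 with mixed calls and 1, inside NTF3 (neurotrophin 3, a nerve growth factor), with no peak in any of the 10 lists. Since the 17-71 contrast chose the regions, nothing is read from the distance of these shares to the background.

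The lost and gained counts moved with single libraries. Without B6 the count of lost regions was 57 (16.8% of all merged regions were lost under the same setting), and without B4 it was 31 (8.83%). The count of gained regions was 8 without B1 (0.782%), 26 without B4 (2.16%) and 36 without B6 (1.82%). The 20000 strongest peaks of each list, which set the lists to one length, left 16 lost (1.41%) and 2 gained (1.28%).

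**Figure D2:**
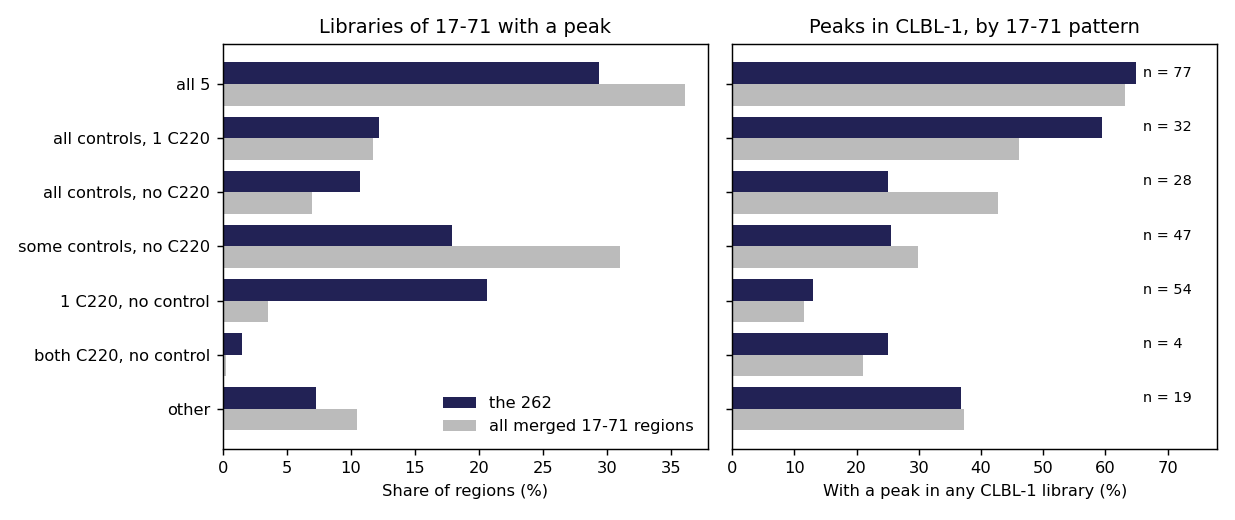
Left, the share of the 262 regions (dark bars) and of all merged 17-71 regions (grey bars) with each pattern of calls in the 17-71 libraries, in percent; right, the share of each pattern with a peak in any CLBL-1 library, with n the number of the 262. Regions called in 1 C220 library alone make up 20.6% of the 262, and 13% of these have a CLBL-1 peak, against 64.9% of those called in all 5.

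Lost regions are given in order of their weakest control peak, for the 12 highest of the 22 that carry a symbol. The first lay inside GALM (galactose mutarotase) at chr17:30744783-30746526, with fold enrichments of 4.24, 4.48 and 5.04 and −log10 p of 15.3, 15.9 and 20 in B1, B2 and B3. The region inside ARG2 (the mitochondrial arginase), chr8:41590191-41591563, had fold enrichments of 3.70, 3.8 and 3.47. Downstream of EIF1 (a factor in the choice of the start codon), at chr9:21095778-21096809, they were 2.29, 2.50 and 2.37. The 3 controls lay close together at each of these 3 regions, and neither C220 library of 17-71 nor any CLBL-1 library had a peak there.

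A region downstream of a 5S ribosomal RNA gene (RF00001), chr7:78243805-78245417, had fold enrichments of 4.02, 3.70 and 4.04 in the controls of 17-71. It also had peaks of 3.24 and 3.51 in the CLBL-1 C220 libraries C5 and C6, and none in the other CLBL-1 libraries. The region across the end of DEPDC1B (a DEP domain protein), chr2:47295398-47296802, reached 4.39, 5.30 and 4.95. STRADB (a pseudokinase partner of LKB1) had 4.47, 3.85 and 4.24 at chr37:10553271-10553863, and APPL1 (an endosomal adaptor) had 3.76, 3.37 and 3.05 at chr20:33160053-33163630. These regions had no peak in CLBL-1, apart from that near RF00001.

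The others of the 12 were paired with APOLD1, UBE2H, DDX3X, SNX8 and SETD6. UBE2H encodes a ubiquitin-conjugating enzyme, and its region at chr14:6915500-6916846 had fold enrichments of 4.36, 3.18 and 3.68 in the 17-71 controls and a peak in 4 CLBL-1 libraries (3.68 in C3, 3.1 in C4, 2.92 in C5 and 3.73 in C6). SNX8, a sorting nexin, had 2.87, 2.81 and 3.09 at chr6:14834750-14836712, with CLBL-1 peaks in C4 (2.49) and C5 (2.60). These calls show that a region lost in 17-71 was at times called in treated CLBL-1 cells. SETD6 encodes a lysine methyltransferase that acts on the NF-κB subunit RelA. Its region at chr2:58136199-58137215 had 3.99, 3.22 and 3.21 and no CLBL-1 peak.

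The gained regions had weak peaks. That downstream of a U6 small nuclear RNA gene (RF00026), chr23:47967793-47968798, had fold enrichments of 3.97 in B4 and 3.27 in B6, with −log10 p of 6.32 and 6.15. That downstream of RERGL (a Ras-related protein), chr27:28954191-28955237, had 3.51 and 2.84, with −log10 p of 6.12 and 5.22. That near RF01699, chr20:1666221-1666784, had 2.98 and 2.96, with −log10 p of 5.24 and 5.41. The lincRNA ENSCAFG00000038381, chr23:10092066-10093421, had 4.00 and 3.0 across its end. All 8 of these calls had a −log10 p of 7.29 or less. The RF01699 region was also called in CLBL-1 in control C2 (3.71) and in all 3 C220 libraries (3.09, 2.75 and 3.27), but not in control C3.

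Peaks in 1 C220 library alone were mostly near the limit of the caller. Of the 54 such regions, 32 were called only in B4 and 22 only in B6, and 45 were shorter than 1000 bp. The −log10 p was under 6 in 44 of them (81.5%), against 78.6% of all 1734 merged regions of this pattern, and the median was 5.41. One region stood far from the rest. It lay downstream of the microRNA gene ENSCAFG00000030140 at chr31:103694-103978, was 285 bp long, and had a fold enrichment of 15.5 and a −log10 p of 203 in B4, rank 46 of that list, with no peak in the other 9 libraries. The next highest −log10 p of the 54 was 7.43.

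Genes of the role lists are described next. The lists were chosen with earlier results of these data known, and 76 of the 262 regions belonged to them. All controls of 17-71 had a peak at 52.3% of the 262 regions and 54.7% of all merged regions, and both C220 libraries at 34.7% and 38.7%. No control had a peak at 22.5% and 3.76%, and no C220 library at 29% and 38%. The counts of each list stand beside these shares as a description: the lists are short, their regions were chosen on this contrast, and nothing is read from the counts about a list.

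Cyclins and other cell cycle genes were paired with 8 regions. Of these, 6 had a peak in all controls (54.7% of all merged regions did) and 3 in both C220 libraries (38.7%), 2 were lost (6.94%), and none was called in C220 libraries only (3.55% in 1 and 0.215% in both). MAX encodes the obligate partner of MYC in DNA binding. The region inside it, chr8:39446061-39447403, was among the strongest, with fold enrichments of 6.97, 6.27 and 6.02 in B1, B2 and B3, 5.97 in B4 and 6.18 in B6. Its −log10 p was 63.5, 57.6 and 51.7 in the controls and 17.1 and 30.6 in the C220 libraries. Its ranks of 1569, 870 and 854 against 3149 and 1362 overlapped between the groups, since B6 lay between the controls. All 5 CLBL-1 libraries also had a MAX peak, with fold enrichments of 6.39 and 6.06 in the controls and 5.65, 5.55 and 5.92 with C220.

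CCND1 and CCND2 encode D-type cyclins, which drive the passage from G1 into S phase. The region downstream of CCND1, chr18:48497350-48498987, had fold enrichments of 4.06, 3.57 and 3.85 in the controls and 3.05 and 3.66 with C220, and ranks of 8354, 11775 and 7813 against 20920 and 13855. The region inside CCND2, chr27:40589650-40590859, had ranks of 3833, 4238 and 2904 against 8037 and 9107. By rank both C220 libraries lay below all controls at both cyclins, whereas by fold enrichment the groups overlapped, since B6 lay within the control range at CCND1 and B4 was highest at CCND2 (2.21, against 2.16, 2.08 and 2.12, with 1.88 in B6). CCND1 had no CLBL-1 peak and CCND2 had one only in C6.

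The lost regions of this list were those of DEPDC1B, given above, and CDCA2, which encodes a regulator that brings protein phosphatase 1 to mitotic chromatin. CDCA2 had 1.94, 2.13 and 2.28 at chr25:31993564-31994675. MYCBP, a MYC-binding protein, was called in the controls (3.70, 3.13 and 3.03) and in B6 (3.04). HBP1 (a repressor of cell cycle genes) and MYBL1 (a MYB family transcription factor) were called in B3 alone in 17-71. MYBL1 had a peak in all 5 CLBL-1 libraries, with fold enrichments from 3.17 in C4 to 4.49 in C6.

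Apoptosis and survival genes gave 5 regions. BCL2A1, an anti-apoptotic BCL2 relative and a target of NF-κB, had the strongest, downstream of the gene at chr3:57464372-57465703. Its fold enrichments were 5.34, 4.51 and 4.31 in the controls and 4.18 and 4.80 with C220, with −log10 p of 77.4, 44.2 and 44.5 against 13.9 and 28.5. The ranks were 976, 1553 and 1228 against 4569 and 1592. B6 thus stood just past the lowest control by rank and inside the control range by fold enrichment.

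FAS (the death receptor) had a region inside the gene at chr26:38741647-38743604, with 3.06, 3.43 and 3.52 in the controls, none in B4 and 3.14 in B6. MCL1, another anti-apoptotic BCL2 relative, had 1.86, 1.86 and 1.85 in the controls, none in B4 and 1.95 in B6. At both genes B4 lacked a peak and B6 had one as high as a control. DAPK1 (death-associated protein kinase) was called in B1 and B2 only, and TNFRSF1B (a TNF receptor) in B6 only, with a −log10 p of 5.69. FAS, DAPK1 and BCL2A1 had a peak in all 5 CLBL-1 libraries, as did 29.3% of all merged regions and 23.3% of the 262, and nothing is read from so few regions.

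B cell and immune signalling was the largest list, with 16 regions. All controls had a peak at 13 (54.7% of all merged regions) and both C220 libraries at 8 (38.7%), and 2 were lost (6.94%). At 4 of the 8 called in all 5 libraries both C220 libraries ranked below all controls, and at none did both rank above. Over all merged regions called in all 5 libraries, 14.2% ranked below and 18.6% above in this way.

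The strongest was CLEC2D, a C-type lectin that is the ligand of the receptor CD161 on NK and T cells. Its region lay downstream at chr27:36294471-36295646, with fold enrichments of 8.64, 6.91 and 5.91 in B1, B2 and B3, 5.31 in B4 and 6.19 in B6. The ranks were 45, 49 and 64 against 543 and 105. It was thus among the 64 strongest peaks of every control and stayed high in both C220 libraries. In CLBL-1 the same region had 4.68 and 4.55 in the controls and 4.31, 4.54 and 4.87 with C220, at ranks from 4789 to 6924.

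OTULIN, which removes linear ubiquitin chains and restrains NF-κB, had an open region inside it at chr34:153818-154844. Fold enrichments were 4.28, 3.49 and 3.1 in the controls and 2.84 and 3.45 with C220, and ranks 1446, 1601 and 2940 against 9583 and 2646. B4 stood apart, and B6 lay within the controls. TLR7, an endosomal receptor of single-stranded RNA, had 3.19, 4.60 and 4.78 in the controls and 2.97 and 3.49 with C220 at chrX:9338221-9339213. Here the control B1 lay far from B2 and B3 (ranks 16146, 3092 and 2150) and the groups overlapped, with ranks of 21887 and 11240 in B4 and B6.

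VAV3, a guanine nucleotide exchange factor downstream of the antigen receptor, had 3.61, 4.51 and 4.33 against 3.76 and 3.43. DTX3L, a ubiquitin ligase partner of PARP9, had 6.97, 6.22 and 5.34 against 5.17 and 4.60. Its ranks of 2448, 2156 and 2802 against 6161 and 6385 did not overlap. RAC1, a regulator of the actin cytoskeleton, had 5.66, 4.82 and 4.61 against 4.37 and 3.16, and here B6 was the weaker C220 library. Both groups were separate by fold enrichment and by rank at DTX3L and RAC1. ZC3H12D, an RNase that degrades inflammatory mRNAs, overlapped by fold enrichment (4.15, 4.00 and 3.39 against 3.71 and 3.41) and not by rank (5924, 4248 and 6288 against 11039 and 12920). CD180, a Toll-like receptor relative on B cells, had higher fold enrichments in both C220 libraries (2.65, 2.50 and 2.34 against 2.76 and 2.71), whereas its ranks overlapped, with B4 the weakest (14194, 11451 and 13550 against 20287 and 12391).

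BTNL2 (a butyrophilin-like T-cell inhibitor), FGR (a Src family kinase) and SLA (an adaptor that dampens antigen receptor signals) were called in all controls and in B6 but not in B4. The lost pair was CD200, a ligand that restrains myeloid cells (3.82, 3.44 and 3.38), and MAP3K14, the kinase NIK of the non-canonical NF-κB pathway (2.15, 2.30 and 2.15, with −log10 p of only 6.09, 6.46 and 5.20). LPXN, DLA-DOB and HLA-DRB1 were called in 2, 2 and 1 controls and in no C220 library. DLA-DOB and HLA-DRB1 are genes of the class II major histocompatibility complex, whose members share sequence. Whether this affected the peaks there was not tested. Of this list, CLEC2D, DTX3L, FGR and ZC3H12D had a peak in all 5 CLBL-1 libraries, as did 29.3% of all merged regions and 23.3% of the 262, and VAV3 had one in 2 of them.

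Transcription factors and chromatin regulators gave 14 regions of 13 genes. All controls had a peak at 10 (54.7% of all merged regions) and both C220 libraries at 5 (38.7%). ARID1A and ARID1B encode subunits of the SWI/SNF remodelling complex. The region inside ARID1B, chr1:46372981-46375952, had fold enrichments of 4.66, 4.03 and 3.77 against 3.93 and 3.51, with ranks of 13375, 9382 and 11466 against 16889 and 20860. ARID1A was called in the controls (4.05, 3.11 and 3.53) and in B4 (3.48) but not in B6, 1 of the 3 regions with that pattern. Both genes had peaks in all 5 CLBL-1 libraries.

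SIN3B, a scaffold of histone deacetylase complexes, had 4.37, 4.78 and 4.03 against 3.66 and 3.79 at chr20:45783310-45786086. TDG, the thymine DNA glycosylase that acts in active DNA demethylation, had 4.33, 4.14 and 3.97 against 3.58 and 3.52 at chr15:42496443-42497638, with ranks of 3458, 2594 and 2901 against 7996 and 5464. The groups did not overlap at either gene, by fold enrichment or by rank. BHLHE40, a basic helix-loop-helix repressor, went the other way by fold enrichment (2.69, 2.36 and 2.36 against 3.1 and 2.84), and its ranks overlapped (8530, 10963 and 8669 against 9928 and 8334). HLX, a homeobox factor, had 2.62, 2.56 and 2.77 against 2.95 and 2.52, and the groups overlapped.

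IRF2BP2, a corepressor of IRF2, was paired with 2 regions 2908 bp apart. The one across its end had fold enrichments of 3.52, 3.37 and 3.18 in the controls and 3.57 in B6, with no peak in B4, although its control ranks of 5200, 4386 and 4019 were high. The one downstream was lost, with control values of 2.19, 3.21 and 2.70. The former was called in all 5 CLBL-1 libraries, with fold enrichments from 2.17 to 2.47, and the latter in none. CEBPB (a leucine zipper factor) was called in the controls and in B6 (5.16, 3.74, 3.48 and 3.26), KLF4 in B1 and B3, and SCML4 in B1. PAX1, a paired-box factor, was called in B6 alone, and ESR1, the oestrogen receptor, in B3 and B6. SETD6 was lost, as given above.

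RNA-binding and translation genes gave 11 regions. Of these, 5 were lost (6.94% of all merged regions were), 9 had no peak in either C220 library (38%) and 1 was called in all 5 libraries (36.1%). The last was that of EIF3K, a subunit of the translation initiation factor eIF3. The region inside it, chr1:114437228-114438985, had 6.0, 5.15 and 5.27 in the controls and 4.07 and 4.93 with C220, with ranks of 1663, 2243 and 1765 against 8944 and 3737. The groups did not overlap by either measure, and no CLBL-1 library had a peak there.

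The lost regions were paired with EIF1, DDX3X, HNRNPU, MIR21 and PABPN1. DDX3X, an RNA helicase of translation, had 4.20, 3.54 and 3.50 downstream at chrX:35776391-35778315. MIR21, a microRNA abundant in many lymphomas, had 2.41, 2.41 and 2.48, and PABPN1, the nuclear poly(A)-binding protein, 3.33, 3.15 and 3.01. HNRNPU, a nuclear matrix and RNA-binding protein, was weak in the 17-71 controls, with 2.81, 2.58 and 2.61 and −log10 p of 6.33, 5.09 and 5. The control peaks of PABPN1 (−log10 p of 5.89, 6.25 and 5.35) and MIR21 (6.77, 6.51 and 6.90) were also close to the limit of the caller. In CLBL-1 the region of HNRNPU, chr7:35839178-35841617, was strong in all 5 libraries, with 5.67 and 4.87 in the controls and 5.46, 6.86 and 5.58 with C220.

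Of the remaining RNA-related regions, 4 were called in some controls and no C220 library. HNRNPA2B1 (a splicing regulator) and ZNFX1 (an RNA sensor) had a peak in B2 and B3, METTL3, the catalytic subunit of the m6A RNA methyltransferase, in B2, and CNBP, a nucleic acid-binding zinc finger protein, in B1. MBNL1, a splicing regulator, had peaks in all controls and one of higher fold enrichment in B6 (2.77, 2.15 and 2.09 against 3.17). CNBP had a peak in all 5 CLBL-1 libraries, from 3.6 to 3.88.

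Metabolic and stress genes gave 8 regions. ALAS1, the first enzyme of haem synthesis, had 4.11, 4.76 and 4.47 in the controls and 3.35 and 4.39 with C220 inside the gene, and GLUL, glutamine synthetase, had 4.61, 5.52 and 5.19 against 3.26 and 4.99. At both genes B4 lay below all controls and B6 lay among them. ARG2 was lost. TXNIP, an inhibitor of thioredoxin, was called in B1 and B3, CYP51A1 (of sterol synthesis) and SLC25A25 (a mitochondrial carrier) in B1, DGAT1 (of triglyceride synthesis) in B4, and IDH3A (of the citric acid cycle) in B6.

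The phosphatases DUSP3 and DUSP6, which act on MAP kinases, were called in all 5 libraries. DUSP6, which is specific for ERK, had 4.25, 4.01 and 4.04 in the controls and 5.75 and 4.42 with C220 downstream at chr15:30320259-30321825. It was higher in both C220 libraries by fold enrichment, whereas its ranks of 2227, 1643 and 1099 against 1544 and 1979 overlapped. In CLBL-1 the DUSP6 region had 5.29 and 4.79 against 5.27, 5.62 and 5.42. DUSP3 had 4.16, 4.48 and 4.28 against 4.20 and 4.00, with ranks of 2243, 1849 and 1328 against 4044 and 3350.

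Genes known mainly from outside B cells gave 12 regions. Of these, 7 had no peak in any control (22.5% of the 262 and 3.76% of all merged regions) and none had a peak in CLBL-1, where 44.8% of all merged regions and 11.5% of those called in 1 C220 library alone had one. TCN1 (a vitamin B12 carrier of secretions), CNTN1 (a neural adhesion molecule) and IGFBP7 were called in B6 alone, and PPBP (a platelet chemokine), PRAME (a testis and tumour antigen) and RPTN (of the epidermis) in B4 alone. None of these 6 peaks had a −log10 p above 5.82. KIT, the receptor of stem cell factor, had a peak in all 5 libraries, with 2.98, 2.77 and 2.63 against 3.07 and 2.61 and ranks of 9214, 8500 and 9424 against 13613 and 15889. RBP3, a retinal carrier of retinoids, was the only gene of the role lists at which both C220 libraries ranked above all controls (14357, 14055 and 16435 against 4258 and 10378). By fold enrichment RBP3 overlapped (5.07, 4.37 and 3.82 against 5.37 and 3.84). GRM3, ELSPBP1 and CRHR2 were called in B1 and B4, in B1, and in the controls and B4.

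**Figure D3:**
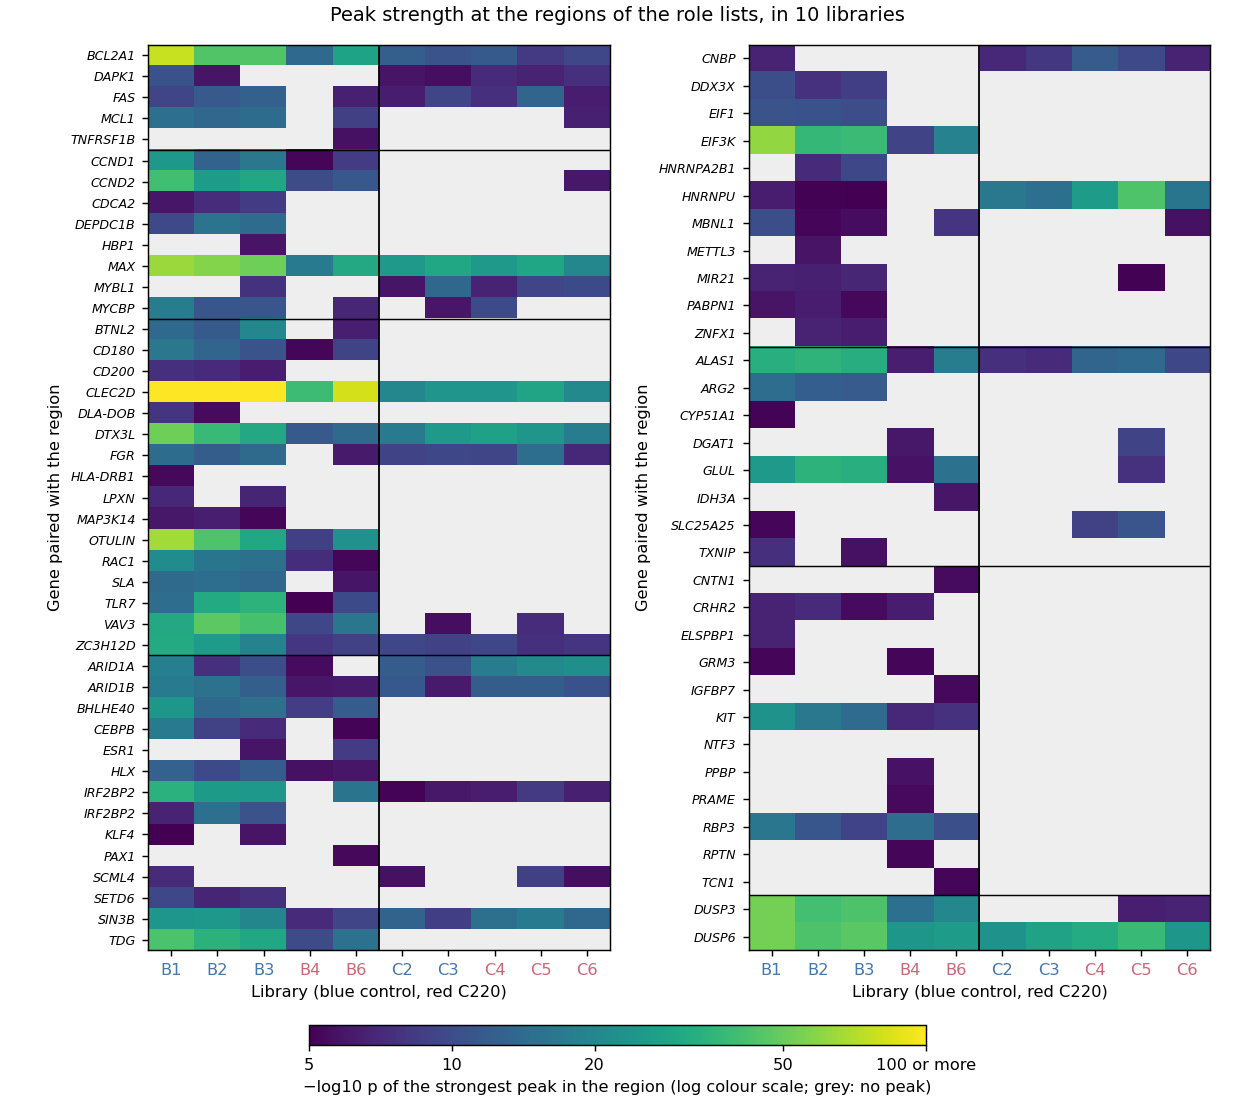
−log10 p of the strongest peak at each of the 76 regions of the role lists (rows, by paired gene; black lines part the lists) in the 10 libraries (columns, blue labels for control and red for C220; the vertical line parts 17-71 from CLBL-1). Colour is on a log scale from 5 to 100 or more and grey means no peak. CLEC2D is strongest in the 17-71 controls, and HNRNPU is stronger in CLBL-1 than in 17-71. All regions of the list of genes known mainly from outside B cells (CNTN1 to TCN1) are grey in CLBL-1.

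Over the 77 regions with a peak in all 5 libraries, the measures of peak strength did not give one answer. By fold enrichment, both C220 libraries lay below all controls at 22 regions and above at 5. Over all 17618 merged regions of this kind, 17.4% lay below and 4.21% above. By rank the counts were 39 below and 14 above, with 14.2% and 18.6% over all such regions. By covered bases 47 were below and 1 above, with 44.3% and 1%. More of the 77 lay below than above by each measure, and by how many depended on the measure. Over all such regions, more lay above than below by rank. The 77 come from regions chosen on this contrast, so these counts are a description and nothing is read from them. The ranks and covered bases were added after the data were seen.

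The median difference in log2 fold enrichment of the 77, C220 minus control with each library centred on its median, was 0.01, with a pooled SD of 0.10 between the medians of libraries of the same group. The median was 0.03 over all merged regions called in all 5 libraries. Without centring both medians were below 0, at −0.07 for the 77 and −0.05 over all such regions, so the sign depended on the scaling. The medians of fold enrichment of the 77 were 4.26, 4.03 and 3.96 in B1, B2 and B3 and 3.82 and 3.64 in B4 and B6. Their median rank was 7625, 5329 and 5268 in the controls and 11027 and 8334 with C220. The medians of all merged regions called in all 5 lay between 9048.5 and 9294.5 in every library. The 77 thus ranked ahead of them in all 3 controls and in B6, and behind them in B4.

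**Figure D4:**
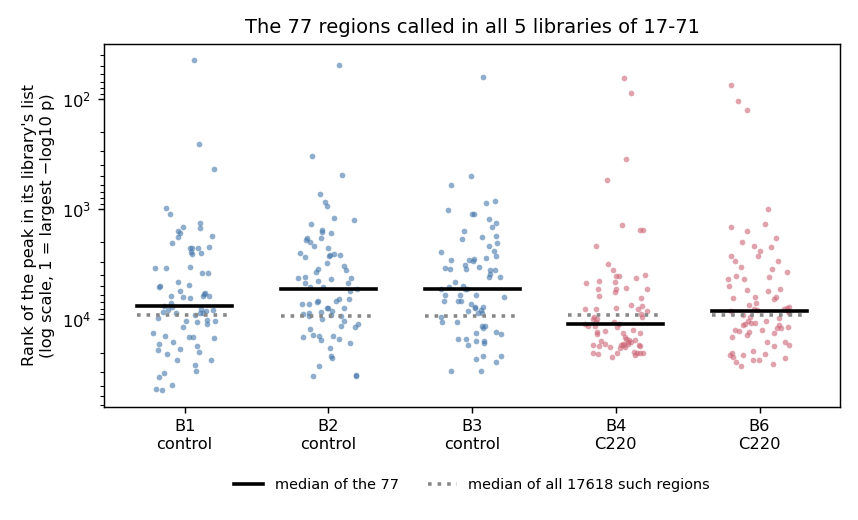
Rank of the strongest peak of each of the 77 regions called in all 5 libraries of 17-71 (points) in its library's own list, on a log axis with the strongest peaks at the top; blue is control and red is C220. Black lines are medians of the 77 (7625, 5329 and 5268 in the controls, 11027 and 8334 with C220) and dotted lines are medians of all 17618 such regions.

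A peak was present in all 10 libraries at 37 regions, and at 18.7% of all merged regions. Of the 37, the 6 with the largest difference in fold enrichment in 17-71 included 1 gene with a symbol, TMEM187 (a membrane protein). Its region lay downstream at chrX:121823549-121824891 and had 6.21, 7.24 and 6.84 in the controls and 4.77 and 4.11 with C220, a log2 difference of −0.61 without centring of the libraries, as for the other 5. In CLBL-1 it had 5.34 and 5.61 in the controls and 6.0, 5.56 and 5.82 with C220. The groups were apart in 17-71 and overlapped in CLBL-1. Of the other 5, those of ENSCAFG00000039401, ENSCAFG00000028966, ENSCAFG00000029706 and ENSCAFG00000036208 were lower with C220, with log2 differences of −0.47, −0.45, −0.38 and −0.38, and that of the lincRNA ENSCAFG00000040703 was higher by 0.37. At ENSCAFG00000039401 the difference came from B4 (3.85), as B6 (7.61) lay among the controls (8.63, 6.32 and 7.65). ENSCAFG00000040703 had 3.45, 2.79 and 2.37 against 4.14 and 3.26, and between 5.14 and 5.62 in all CLBL-1 libraries.

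The 14 regions at which both C220 libraries ranked above all controls were mostly paired with genes that had no symbol. Those with one were RBP3, CETN1 (a centrin), FTCD (of histidine breakdown) and SLC38A4 (an amino acid transporter). The region across the end of SLC38A4, chr27:7770175-7770975, had the highest fold enrichments among these, with 17.1, 12.5 and 10.6 in the controls and 16.3 and 10.9 with C220, and between 10.5 and 20.2 in CLBL-1. Its fold enrichment overlapped between the groups in both lines. At ENSCAFG00000032054, chr18:45362188-45363741, both measures were higher with C220, with fold enrichments of 4.29, 4.78 and 4.67 against 5.73 and 5.96 and ranks of 19067, 7272 and 7710 against 1537 and 1460.

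Besides IRF2BP2, 4 genes were paired with 2 regions. APOLD1, which encodes an endothelial apolipoprotein L relative, had regions 1293 bp apart on chromosome 27, of which one was called in B2 alone and the other was lost, with fold enrichments of 3.37, 3.38 and 3.99 in the controls. The lincRNAs ENSCAFG00000034714 and ENSCAFG00000032992 had a peak in all 5 libraries at both of their regions. ENSCAFG00000034714 ranked higher in both C220 libraries than in all controls at both, with 6226, 3520 and 3542 against 355 and 1831 at chr27:13154981-13158107. At ENSCAFG00000034242, 1 region had a peak in all 5 libraries and the other in all but B4. DUSP3 and CFAP97D1 (a cilia and flagella protein relative) were paired with regions 6009 bp apart on chromosome 9, of which that of CFAP97D1 was not called in B4.

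The last of the 262 in the order of the study's table were those of CRHR2, SIN3B and the lincRNAs ENSCAFG00000032801 and ENSCAFG00000038503. ENSCAFG00000032801 had fold enrichments of 4.43, 4.60 and 3.96 in the controls and 3.56 and 3.79 with C220. ENSCAFG00000038503 was called in B1 (2.94) and B4 (3.46). Rows after these were not analysed here.

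CLBL-1 gave the independent view of the same regions. A peak in any CLBL-1 library overlapped 103 of the 262 (39.3%), against 44.8% of all merged 17-71 regions, 60.2% of the promoter-side rows and 36.5% of the rows with no paired gene. All 5 CLBL-1 libraries had a peak at 61 (23.3%), against 29.3% of all merged regions, 45% of the promoter-side rows and 21.2% of the rows with no paired gene, and 159 had none. The share differed with the pattern in 17-71. It was 64.9% of the 77 regions called in all 5 libraries (63.1% over all merged regions of that pattern), 59.4% of those called in all controls and 1 C220 library (46.1%), 25% of the lost (42.8%), 25.5% of those called in some controls (29.9%), 13% of those called in 1 C220 library (11.5%) and 1 of the 4 gained. The lost share rests on 7 of 28 regions.

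In CLBL-1, 105 merged regions overlapped one of the 262. None was called in both controls and in no C220 library, where 0.497% of all 32575 CLBL-1 regions were. In the other direction, 2 were called in all 3 C220 libraries and in no control, where the background was 1.73%. One lay inside KCTD5 (a cullin adaptor), with 2.72, 3.0 and 2.92 in C4, C5 and C6 and a −log10 p of 7.70 or less. In 17-71 the KCTD5 region went the other way, with peaks in all controls (4.11, 3.77 and 3.52) and a lower one in B6 (2.82), and none in B4. The other lay downstream of ENSCAFG00000013158, with 3.39, 4.11 and 3.44 in CLBL-1 and peaks in all 5 libraries of 17-71 (6.05, 4.51 and 4.31 against 5.35 and 5.19). The CLBL-1 lists held 23822 and 23318 peaks in C2 and C3 and 27026, 27247 and 23082 in C4, C5 and C6. With the 20000 strongest peaks of each list, 1 region was lost (0.872% of all CLBL-1 regions) and 2 were gained (0.817%). In C4 and C6, KCTD5 (ranks 22223 and 22321) and ENSCAFG00000013158 (24161 and 22853) lay beyond such lists.

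Fold enrichment was tested in CLBL-1 over the 18371 regions called in all 5 of its libraries, with limma on centred log2 values and Benjamini-Hochberg adjustment. No region passed an adjusted p of 0.1, so the background was 0% in each direction. The smallest adjusted p of limma was 0.665, and 1090 regions (5.93%) had an unadjusted p under 0.05. Of the 63 tested regions that overlapped the 262, none passed and 3 had an unadjusted p under 0.05 (4.76%). The median log2 difference of the 63 was −0.03, against −0.004 over all regions tested.

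Those 3 were HERC3 (a HECT ubiquitin ligase), GPR19 (an orphan receptor) and MTMR12 (a myotubularin relative without phosphatase activity). HERC3 had fold enrichments of 3.68 and 3.27 in C2 and C3 and 4.58, 4.13 and 4.64 in C4, C5 and C6, a log2 difference of 0.35 (SE 0.09, limma adjusted p = 0.796). GPR19 had 3.41 and 3.33 against 4.83, 3.8 and 4.38, a log2 difference of 0.35 (SE 0.10, limma adjusted p = 0.805). MTMR12 had 5.32 and 4.99 against 4.25, 4.02 and 4.53, a log2 difference of −0.28 (SE 0.09, limma adjusted p = 0.81). The 2 groups did not overlap at any of the 3, nor at some other tested regions, such as those of MAX and BCL2A1. How many of all regions tested did not overlap was not counted. The 3 were picked for their small p, so nothing is read from the separation of their groups. None of the 3 passed over all regions tested. In 17-71, HERC3 and MTMR12 were called in B1 and B2 alone and GPR19 in all controls and in B6. BCL2A1 came next, with a log2 difference of −0.21 (limma adjusted p = 0.862).

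**Figure D5:**
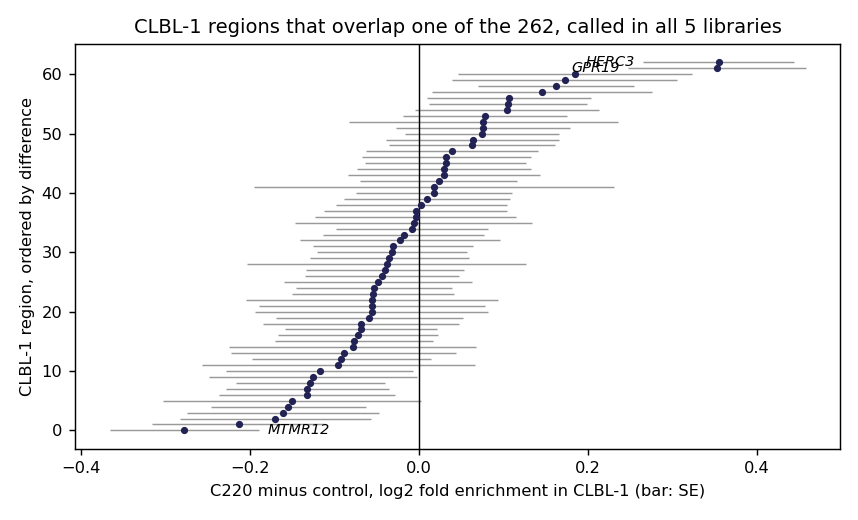
Difference in log2 fold enrichment, C220 minus control, with its SE (bars), for the 63 CLBL-1 regions that overlap one of the 262 and were called in all 5 CLBL-1 libraries, ordered by difference. HERC3 and GPR19 lie at 0.35 and MTMR12 at −0.28, and none passed the limma threshold.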

How the data were processed

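Nuclei of 5 libraries of each line were tagged and sequenced as read pairs. Per the study's methods, outlier samples had been removed after correlation of read counts, so these are the libraries kept. The authors aligned the reads to CanFam3.1 with Bowtie2 2.2.4 and called broad peaks with MACS2 (-log10 p of at least 5), 1 list per library, without pooling. The deposited lists give each peak's fold enrichment, a ratio of pile-up to local background, and −log10 p, neither scaled between libraries; read depth is not in the lists and no interval for depth is given. The study's table of read counts was used only for the positions, classes and paired genes of its rows. Its comparison columns (fold changes and p-values of the study's own tests) were not used.

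Peaks of a line that touched or overlapped were merged (1 bp; Python 3.11.15, pandas 2.3.3). The fold enrichment of a region is the length-weighted mean of its peaks and the −log10 p their maximum. Of the 262 regions, 260 equalled a merged region. Missing calls were not imputed. CLBL-1 was tested with limma 3.58.1 in R 4.3.3, checked on simulated data. The regions and role lists were chosen with earlier results of these data known. Named genes were the lost and gained regions with a symbol (at most 12 each, by weakest peak), the role lists, genes with 2 regions, and the 6 regions called in all 10 libraries with the largest difference; genes outside this rule (ENSCAFG00000030140, ENSCAFG00000032054, SLC38A4, CETN1, FTCD, KCTD5, ENSCAFG00000013158, HERC3, GPR19, MTMR12, CFAP97D1, the lincRNA ENSCAFG00000038381, and ENSCAFG00000032801 and ENSCAFG00000038503 as the last in the table's order) were named outside it, after values of these data were seen. Alternatives were lists of equal length, stricter −log10 p and fold minimums, coverage of the region, centring, and leaving out each library.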

Additional observations from a re-analysis of the deposited data

How the results depend on the processing

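The counts of lost and gained regions depended on list length, caller strength and single libraries. Percentages give the share of all merged regions under the same setting. With the 20000 strongest peaks per library 16 were lost (1.41%) and 2 gained (1.28%) in 17-71, and with 10000 (added after the data were seen) 9 were lost (0.714%). At −log10 p of 10 or more, 43 were lost (6.09%) and 1 gained (0.0143%), 23 had a peak in all 5 libraries of 17-71 (13.7%), 59 in any CLBL-1 library (27.9%) and 10 in all 10 (8.19%), and in CLBL-1 1 was lost (0.117%) and 1 gained (1.15%). At a fold enrichment of 3 or more, 2 were gained in 17-71 (0.237%) and 1 in CLBL-1 (1.34%). When a peak had to cover 0.5 of the region, 20 had one in all 10 libraries (11.3%) and 4 were gained in CLBL-1 (1.98%). The 20000-peak lists gave 1 lost in CLBL-1 (0.872%). Leaving out 1 library gave 31 to 57 lost (7.59% to 16.8%) and 5 to 36 gained (0.248% to 2.16%) in 17-71, and 0 to 2 lost (0.712% to 2.77%) and 2 to 5 gained (2.54% to 4.82%) in CLBL-1. The median log2 difference of the 77 reversed without centring (−0.0707) and ranged from −0.0543 to 0.0542 over libraries left out (−0.0543 without B1, −0.00229 without B6). By rank 39 regions were lower and 14 higher in both C220 libraries, and by covered bases 47 and 1. limma called 1 CLBL-1 region when the highest fold enrichment of a region's peaks was used, and 0 to 1 when a library was left out (1 without C2); none of the 262 was called. Without C2 or C3 the control arm is 1 library, the spread comes from the C220 libraries alone, and the lone control is assumed to vary like them. The causes were not tested. The lists carry no read depth, so from the lists alone a missing peak cannot be told from a shallow library. The study's own read counts were not used to check this. No paired analysis was possible in either line because the replicate numbers were given in accession order and pair no libraries. The CLBL-1 test was therefore unpaired, and the result in 17-71 carries no test.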
